A study of Mus musculus with 57 samples.

Results

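The glutathione S-transferases (Gst genes of the alpha, kappa, mu, omega, pi, theta and zeta classes), UDP-glucuronosyltransferases (Ugt1a, Ugt2a, Ugt2b and Ugt3a) and cytosolic sulfotransferases (Sult) were taken by gene symbol from the count table of a mouse liver study, and the transcript with the highest total count stood for each symbol. The rule found 60 of 24941 genes, of which 22 were glutathione S-transferases, 17 UDP-glucuronosyltransferases and 21 sulfotransferases. The rule for genes used symbols and no expression value, though it was set with earlier results of these data known. Ugt1a7c, Ugt1a6a and Ugt1a6b of the same locus end in a letter, fell outside the rule, and appear below only where the shared Ugt1a exons need them.

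RNA was sequenced in 57 libraries of 16 groups. The main material was 22 whole livers of mice labelled Clec4f-cre DTR neg (DTRneg, n = 10) or Clec4f-cre DTR pos (DTRpos, n = 12), all fed CDAHFD, a choline-deficient high-fat diet, for 4 weeks. Clec4f is a lectin gene of Kupffer cells, the macrophages resident in liver, and DTR is a receptor for diphtheria toxin. The labels do not say whether toxin was given. The sorted cells of C57BL/6J mice formed 2 sets. In the population set there were 2 libraries for each gate: F4/80-high Tim4-positive Kupffer cells on control diet (KC_H) and on a NASH diet, which causes fatty liver inflammation (KC_N), and of F4/80-high Tim4-negative recruited macrophages of the Kupffer niche (KN_RM), CD11b-high Ly6C-low (Ly6CLow_RM) and Ly6C-high (Ly6CHi_RM) recruited macrophages and blood Ly6C-high monocytes (Blood_Ly6CHi), the last 4 also on the NASH diet. The time course held Tim4-positive Kupffer cells before the NASH diet (week 0, control diet, n = 3) and at week 1 (n = 2), week 4 (n = 2), week 10 (n = 3), week 20 (n = 3) and week 30 (n = 4). The LXR set held Tim4-negative cells after 20 weeks of NASH diet of mice carrying floxed alleles of both LXR genes (alpha and beta), labelled Clec4f-cre pos (LXR_CrePos, n = 3) or Cre neg (LXR_CreNeg, n = 3). Clec4f-Cre acts in cells that express Clec4f, so any deletion depends on that promoter.

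Total counts per library ran from 5389957 to 9941477 in the livers, 12368140 to 22707571 in the population set, 10483452 to 26969509 in the time course and 2319383 to 5086239 in the LXR set. CPM below are counts scaled to library size with TMM factors, which compare libraries and not genes. Summed marker levels are scaled to library size alone. Clec4f did not divide the livers by label: it was 1.37 to 6.05 CPM in the libraries labelled DTRneg 6 to 9 and 3.37 and 11.6 CPM in those labelled DTRpos 3 and 2, beside 27.2 to 140 CPM in the other 16 livers. In the LXR set, Nr1h3 (LXR alpha) was at 247, 282 and 307 CPM in the Cre-negative and 187, 451 and 298 CPM in the Cre-positive libraries, and Nr1h2 (LXR beta) at 51.1, 33.3 and 36.6 beside 61.1, 82.5 and 64.5 CPM, so that neither was lower throughout in the libraries labelled Clec4f-cre pos. Counts over the whole gene do not show whether a floxed exon was lost. The labels do not say that replicates were separate animals, so p-values reflect only how much these samples vary. In whole liver, fewer cells of a type and less RNA per cell cannot be told apart.

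Conjugation makes lipophilic drugs, hormones, bile pigments and products of lipid peroxidation water soluble and ready for export into bile or urine. Glutathione S-transferases join the tripeptide glutathione to electrophiles, UDP-glucuronosyltransferases of the endoplasmic reticulum transfer glucuronic acid from UDP-glucuronic acid, and sulfotransferases of the cytosol transfer sulfate from the donor PAPS. Hepatocytes are the main site of all 3 families, and many of the genes respond to NRF2, the transcription factor of the antioxidant response, to the nuclear receptors PXR and CAR, or to sex hormones. Macrophages carry a smaller set, among them omega, pi and mu class transferases.

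The Ugt1a genes needed their sequence before their values. Each joins a first exon of its own to the same exons 2 to 5 on chromosome 1 (GRCm38, plus strand, chr1:88055411-88220002 from the first base of Ugt1a10 to the last of Ugt1a1). Exon 2 was chr1:88215044-88215175 for Ugt1a1, Ugt1a2, Ugt1a5, Ugt1a7c, Ugt1a9 and Ugt1a10. The last 30 bases of the first exon are shown in lower case and the first 30 bases of the shared exon 2 in capitals (GENCODE vM21 transcripts on GRCm38). The sequences show why a read in the capitals cannot be given to a single gene.
Ugt1a10: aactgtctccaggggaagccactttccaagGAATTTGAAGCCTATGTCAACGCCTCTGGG
Ugt1a9: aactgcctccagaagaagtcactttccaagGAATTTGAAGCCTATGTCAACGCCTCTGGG
Ugt1a7c: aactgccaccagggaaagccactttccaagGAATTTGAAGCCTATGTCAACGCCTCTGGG
Ugt1a5: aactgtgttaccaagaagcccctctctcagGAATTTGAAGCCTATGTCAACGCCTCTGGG
Ugt1a2: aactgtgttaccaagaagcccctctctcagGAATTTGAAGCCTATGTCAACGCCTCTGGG
Ugt1a1: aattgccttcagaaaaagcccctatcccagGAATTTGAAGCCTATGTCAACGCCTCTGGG

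Ugt1a2 and Ugt1a5 were alike over all 60 bases shown. Of the length counted for Ugt1a1, 71.7% was shared with the other lines of the locus, and the share was 71.4% for Ugt1a10, 71.9% for Ugt1a2, 72.1% for Ugt1a5 and 72.6% for Ugt1a9. The counts of the 5 Ugt1a members are therefore largely 1 measurement, and their first exons are described separately below.

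Gstp1 and Gstp2 needed the same care. The pair lies side by side on the minus strand of chromosome 19 (mm10, Gstp1 chr19:4035411-4037912 and Gstp2 chr19:4040288-4042221). Of the 797 bases of the Gstp2 transcript, 93.7% could be matched in order to the 821 bases of Gstp1, with a longest shared run of 369 bases, and 64.3% of all 50-base stretches of Gstp2 also occur in Gstp1. The 250 bases before each start site are shown because the pair gave very different levels (RefSeq, GRCm38.p6, minus strand, chr19:4037913-4038162 and chr19:4042222-4042471). Capitals mark TGAGTCA, the letters of a consensus AP-1 site, a motif searched after the values had been seen.
Gstp1: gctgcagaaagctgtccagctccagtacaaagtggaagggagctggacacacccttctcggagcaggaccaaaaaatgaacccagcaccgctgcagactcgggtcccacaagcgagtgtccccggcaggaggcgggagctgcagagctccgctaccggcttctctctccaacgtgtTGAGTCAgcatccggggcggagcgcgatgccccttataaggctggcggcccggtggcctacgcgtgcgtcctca
Gstp2: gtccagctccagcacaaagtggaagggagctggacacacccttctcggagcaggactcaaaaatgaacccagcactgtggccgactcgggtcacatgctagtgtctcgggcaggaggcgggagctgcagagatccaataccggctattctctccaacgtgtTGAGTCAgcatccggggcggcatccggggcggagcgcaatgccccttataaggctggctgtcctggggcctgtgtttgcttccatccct

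The motif began 74 bases before the start of Gstp1 and 89 bases before that of Gstp2, and the longest run shared by the 2 windows was 43 bases. TGAGTCA was found in 5.2% of all 32851 promoter windows of 300 bases (250 before to 50 after the start, both strands) and in 8 of the 53 members with a window: Gstm5, Gstp1, Gstp2, Sult1b1, Sult1c1, Sult2b1, Ugt2a2 and Ugt2b37. The antioxidant response element TGACNNNGC, which overlaps that motif in its first letters, was in 12.4% of windows and 3 members (Gsta3, Gstm5 and Gstm7), and the dioxin response core TTGCGTG in 1.16% and 1 member (Sult1d1). The STAT5 letters TTCNNNGAA were in 8.3% and 3 members (Gsta1, Gstm6 and Sult3a1), and the HNF1 motif was in 0.00913% and 0 members. A member counted when any of its windows held the motif, while the percentages are over single windows, so the units are unlike. These are matches of letters within the window and describe no binding.

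Whole livers expressed most of the 60 genes. By mean TPM, a level per transcript length that allows genes to be compared, 18 members were above 100, 16 between 10 and 100, 7 between 1 and 10, and 19 under 1. Glutathione S-transferases summed to 3200 ± 591 TPM (SD, n = 22), glucuronosyltransferases to 1420 ± 132 TPM with the shared Ugt1a exons counted once, and sulfotransferases to 537 ± 79.8 TPM. The families differed in breadth: 18 of 22 glutathione S-transferases and 13 of 17 glucuronosyltransferases were above 10 TPM, beside 3 of 21 sulfotransferases. Each Ugt1a line is counted singly in these 13 and in the 18 members above 100 TPM, although their values rest mostly on shared exons. Of the reads outside those exons, described below, Ugt1a2 had 1 of 27228 in DTRneg and 1 of 30155 in DTRpos livers.

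Gstm1, a mu class transferase of broad substrate range (chr3:108012250-108017973), stood first at 1280 ± 420 TPM, with livers from 613 to 2190 TPM. Gstz1, the zeta class enzyme that also works as maleylacetoacetate isomerase in tyrosine breakdown (chr12:87147707-87164723), followed at 429 ± 42.8 TPM, and Gsta3, an alpha class enzyme, at 411 ± 85.4 TPM. These 2 neighbours did not differ beyond their spread between livers. Gstp1 was at 250 ± 40.9 TPM.

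Among the glucuronosyltransferases, Ugt1a1, the enzyme of bilirubin conjugation (chr1:88211959-88220002), was at 326 ± 22.4 TPM, and the lines Ugt1a9, Ugt1a5, Ugt1a2 and Ugt1a10 at 233 ± 15.0, 232 ± 14.6, 229 ± 14.5 and 227 ± 14.4 TPM, values that rest mostly on the shared exons. The Ugt2b genes, which conjugate steroids and bile acids, were led by Ugt2b36 at 253 ± 32.5 TPM and Ugt2b5 at 239 ± 36.9 TPM. Sult1a1, the phenol sulfotransferase (chr7:126672865-126676418), was at 303 ± 25.3 TPM and stood alone among the sulfotransferases above 300 TPM.

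Only sulfotransferases had members at 0 counts in all livers. Ugt2a1 and Ugt2a2 were close to that, with 1 count each over the livers, and the counts of Ugt1a2 could not be told from those of the shared exons. Sult1c1, Sult2a3, Sult2a4, Sult2a6 and Sult6b2 had 0 counts in all 22 livers, and Sult2a3, Sult2a4 and Sult2a6 in all 57 libraries. Of the hydroxysteroid class, Sult2a8 was at 121 ± 69.7 TPM, while Sult2a1 and Sult2a2 were at 0.0917 and 0.101 TPM. Xist was at most 0.082 TPM in the livers. Read assignment limits some of these values, since 17 of the 58 members with a GENCODE transcript shared over 20% of their 50-base stretches with another member (Gsta1 with Gsta2 44.6%, Ugt2a1 with Ugt2a2 68.4%) and 27 shared none.

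**Figure D1:**
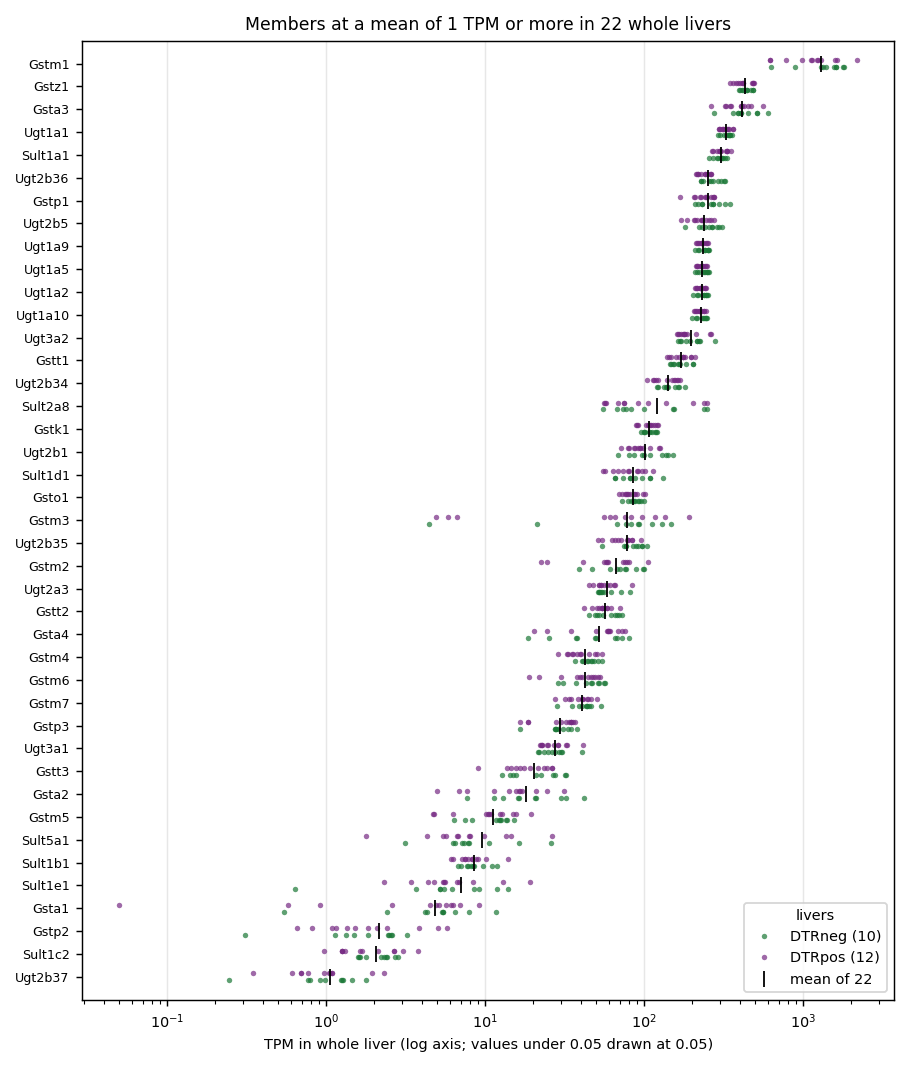
TPM of the members with a mean of at least 1 TPM in whole liver (log axis). Points are libraries (green DTRneg, n = 10, purple DTRpos, n = 12), ticks are means of all 22; Gstm1 is highest at 1280 TPM, and Gstm3, Gsta1, Sult5a1 and Sult1e1 have the largest SDs of log2 CPM.

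DTRpos minus DTRneg called 0 of the 40 members that passed the filter on low counts (edgeR adjusted p under 0.05, called in 0% of 12682 genes), and DESeq2 also called 0. At an unadjusted p under 0.05 stood 1 member, Ugt2b36 at 361 ± 53.8 beside 420 ± 70.2 CPM (log2 -0.22 ± 0.094 SE, edgeR p = 0.0296), and 477 genes (3.76%). The log2 difference was below 0 in 37 of 40 members, with a median of -0.10 beside 0.00 over all genes. These members are not separate measures, since the Ugt1a lines share exons and others varied together between livers. Hepatocyte markers summed to 115000 to 214000 CPM in DTRpos livers (median 140000) and 133000 to 195000 CPM in DTRneg livers (median 150000). Their part in the members' differences was not tested. Gstm1 was at 1210 ± 385 CPM in DTRpos and 1450 ± 375 CPM in DTRneg livers, Gsta2 at 10.2 ± 4.36 and 14.3 ± 6.89 CPM, and Sult1a1 at 316 ± 52.2 and 310 ± 33.9 CPM, so that the groups overlapped in each. The 5 pathway lists (glutathione synthesis and NRF2 targets, cofactor supply, export and deconjugation, regulators, other conjugating enzymes) also held 0 called genes in this contrast. Their most abundant genes overlapped between the labels, among them Mgst1, a membrane-bound glutathione transferase (1890 ± 267 CPM in DTRpos, 1990 ± 263 in DTRneg), Ugp2, which makes UDP-glucose (259 ± 27.7 and 307 ± 38.2), the uptake carrier gene Slco1b2 (760 ± 155 and 857 ± 160) and the hepatocyte regulator gene Hnf4a (729 ± 188 and 845 ± 163).

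The livers differed far more from each other than by label. The median SD of log2 CPM within the labels was 0.331 over the 40 members and 0.238 over all genes tested, and 11 of the 40 lay above the 90th percentile of the genes of most similar level. Gstm3, a mu class transferase (chr3:107963696-107969174), had the largest SD at 1.58, followed by Gsta1 at 1.35, Sult5a1 at 1.02, Sult1e1 at 1.00, Sult2a8 at 0.931 and Gsta2 at 0.644. The Ugt1a lines and Ugt2b34 lay at the other end, with SDs of 0.204 to 0.225 and 0.134.

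Part of this spread belonged to 4 livers, DTRneg 2 and DTRpos 1, 2 and 7. Their Col1a1, the collagen gene used as a measure of fibrosis, was 46.6 to 65.4 CPM, and the other 18 livers had 155 to 351 CPM. The gap of 1.24 log2 units was the widest in the series of 22, and the next was 0.293. The same 4 livers had Alb at 115000 to 138000 CPM beside 36200 to 83000, and Spp1 at 14.6 to 25.2 beside 72.3 to 360 CPM. They were chosen on values and are set beside the others without a test.

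Gstm3 was at 5.08 CPM in DTRneg 2 and at 7.66, 5.7 and 6.85 CPM in DTRpos 1, 2 and 7, while the other 18 livers ran from 23.1 over a median of 79.3 to 168 CPM. The 2 sets of livers did not overlap for Gstm3. Gsta1, an alpha class transferase of the antioxidant response, was at 0.442, 0.469, 0 and 0.761 CPM in the same livers and at 1.76 to 7.9 CPM in the others, with a median of 3.65. Gstm1 reached 985 CPM at most in the 4 and ran from 861 to 2090 CPM in the others, with some overlap.

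Other members were higher in these 4 livers. Ugt1a1 was at 1050 to 1140 CPM beside 672 to 944, Gstz1 at 763 to 785 beside 392 to 704, Ugt3a1 at 70.3 to 88.8 beside 33.8 to 56.9 and Ugt3a2 at 454 to 585 beside 246 to 443 CPM. Sult2a8, a hydroxysteroid sulfotransferase that acts on bile acids (chr7:14410686-14446587), was at 510 CPM in DTRneg 2 and 484, 423 and 523 CPM in DTRpos 1, 2 and 7, and at 82.5 to 460 CPM in the others, with a median of 130. Sult5a1 was at 15.0 to 29.8 CPM beside 1.52 to 27.1, with a median of 6.31. The liver DTRneg 5, whose Col1a1 of 155 CPM was the lowest of the 18, held the highest values of these 2 sulfotransferases among them, 460 and 27.1 CPM, and the lowest Gstm3, 23.1 CPM.

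**Figure D2:**
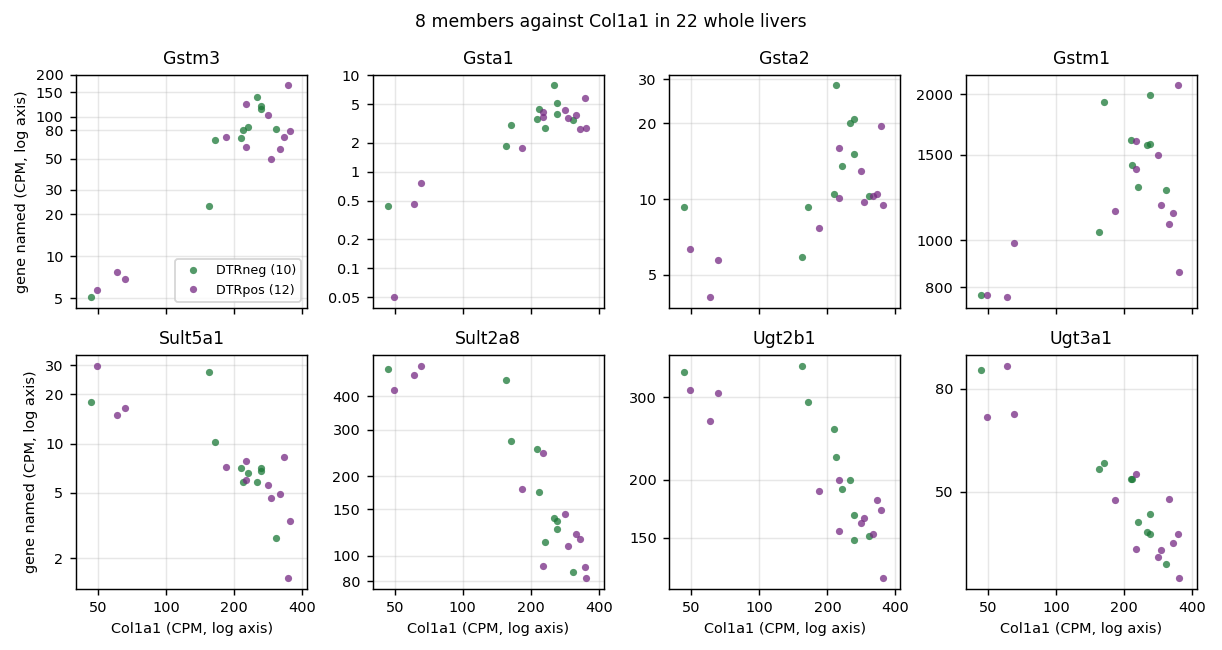
Members Gstm3, Gsta1, Gsta2, Gstm1, Sult5a1, Sult2a8, Ugt2b1 and Ugt3a1 against Col1a1 in 22 whole livers, both in CPM on log axes (green DTRneg, n = 10, purple DTRpos, n = 12; a Gsta1 value of 0 is drawn at 0.05). The 4 livers at 46.6 to 65.4 CPM of Col1a1 are low in Gstm3 and Gsta1 and high in Sult2a8 and Ugt3a1.

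Within the 18 livers of higher Col1a1, members were related to Col1a1 by a slope in edgeR (log2 units per log2 unit of Col1a1, with the label as a further term). Of 40 members, 5 had a called negative slope and 0 a positive one, beside 7.96% of all genes called (4.51% positive, 3.45% negative). Sult2a8 had -1.68 ± 0.25 SE (edgeR adjusted p = 0.00132), Sult5a1 -1.84 ± 0.36 (0.00676), Ugt2b1 -0.80 ± 0.15 (0.0066), Ugt3a2 -0.47 ± 0.095 (0.00744) and Ugt3a1 -0.50 ± 0.12 (0.0178). The median slope was -0.20 over the members and 0.00 over all genes. The hepatocyte markers moved with it, 7 of 16 with a negative called slope and 0 positive, median -0.41, and 2 of 5 cholangiocyte, 5 of 8 monocyte and macrophage (median 0.76) and 4 of 9 stellate markers (median 0.67) had a positive one; their part in the members' slopes was not tested. Without the 2 livers farthest from the median in Col1a1, DTRneg 5 and DTRneg 6, 0 members were called and the slopes of the 5 were -1.34, -1.10, -0.53, -0.40 and -0.48. In the DTRpos livers alone 0 were called as well. The relation rests on those 2 livers as far as calls go.

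In the same 18 livers, export and deconjugation genes had a called positive slope in 4 and a negative one in 3 of 13. Slc51b, an organic solute carrier subunit, had a slope of 1.11, Abcc4 of 0.98 and Abcc5 of 0.57, while Slco1a1, an uptake carrier, had -1.39. Of the cofactor genes 3 of 14 had a negative slope, and the sulfate carrier gene Slc26a1 had -0.71, Mpst -0.56 and Tst -0.38. The other lists had 1 positive of 21 glutathione and NRF2 genes (Pgd of the pentose phosphate path, 0.42), 2 negative of 14 other conjugating enzymes (Nnmt -1.02 and Baat -0.38) and 1 negative of 21 regulators (the oestrogen receptor gene Esr1, -0.57).

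The slope on Nqo1, a textbook NRF2 target, asked whether members varied with the antioxidant response over the 22 livers. It was called in 0 of 40 members and in 0% of all 12681 genes, and 14 members stood at an unadjusted p under 0.05, beside 16.4% of all genes. The slopes of those members fell into 2 sets. The transferases Gsta1 (1.49), Gsta2 (1.07), Gsta4 (0.83), Gstm1 (0.76), Gstm2 (0.76) and Gstm3 (1.5) had positive values, and Sult2a8 (-1.42), Sult5a1 (-1.51), Ugt3a1 (-0.55) and Ugt3a2 (-0.54) negative ones. The lowest edgeR adjusted p was 0.176. The 4 livers of low Col1a1 had 8.75 to 10.1 CPM of Nqo1 in a range of 6.97 to 20.1, and without them Gstm1 had 0.56, Gsta1 0.91 and Gstm3 0.80, with 0 members called. Without the 2 livers farthest from the median in Nqo1, DTRpos 4 and DTRpos 7, 13 members were called.

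The sorted cells showed which members macrophages carry. Over all sorted libraries Gsto1, the omega class transferase with thioltransferase activity (chr19:47854973-47864788), was highest at 80.9 TPM, followed by Sult1a1 at 48.7, Gstp1 at 35.4 and Gstm1 at 33.3 TPM, and by Ugt1a1, Ugt1a5, Ugt1a2 and Ugt1a9 at 17.8 to 19.2 TPM. The values of these Ugt1a lines rest mostly on the shared exons and do not show that each gene was expressed. Of the reads outside those exons, described below, Ugt1a7c, which is no member, held 96.7% in blood monocytes. Gsto1 group means ran from 47.9 TPM in LXR_CreNeg to 135 TPM in blood monocytes, a range that held the whole livers at 82.9 and 87.3 TPM. Gstm1 was at 18.7 to 31.2 TPM in the Tim4-positive and Tim4-negative groups but at 37.8 in Ly6CLow_RM, 94.3 in Ly6CHi_RM and 88.7 TPM in blood.

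All 16 hepatocyte markers were above 0 in every sorted group from liver, so each member's level was set beside 16 hepatocyte markers. Both were expressed as a percentage of their mean TPM in whole liver, for the 41 members at 1 TPM or more in liver; livers and sorted cells came from other mice on other diets, and the comparison is a description. The markers had a median of 0.105% in week 0 Kupffer cells, 4.66% at week 1 and 3.03% in Ly6CHi_RM. In Kupffer cells on control diet of the population set, 5 members stood above all 16 markers: Gsto1, Gstp1, Gstp2, Gstm5 and Sult1a1. These 5 were also among the 8 in week 0 Kupffer cells, with Gsta4, Gstk1 and Gstm4, and among the 7 in KC_N. In most groups the highest marker was Trf (transferrin), with 10.2% at week 0 where the next marker had 0.277%. In blood monocytes 11 of the 16 markers were at 0 and 15 members stood above all of them, the 5 Ugt1a lines included, which rest mostly on the shared exons.

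**Figure D3:**
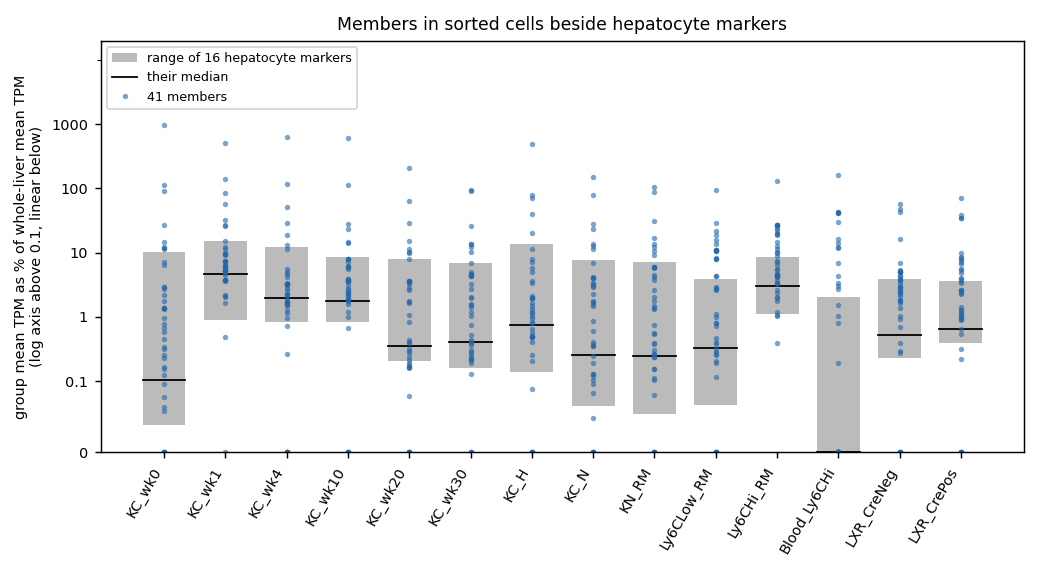
Group mean TPM in sorted cells as a percentage of the whole-liver mean (log axis above 0.1%, linear below). Blue points are the 41 members, grey bars the range of 16 hepatocyte markers and black lines their median; at week 1 and in Ly6CHi_RM the marker median rises to 4.66% and 3.03%, and 5 to 16 members per group lie above every marker.

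The Ugt1a locus used different first exons in liver and in myeloid cells. The reads of a line that lie outside the shared exons were obtained by taking away the lowest count among the lines (the shorter Ugt1a6b aside) in each library, which sets that line to 0, and shares of these own reads were compared. In whole liver Ugt1a1 held 68.9% of the own reads in DTRneg livers (95% Wilson interval 68.3 to 69.4) and 70.7% in DTRpos livers, Ugt1a6b 13.0% and 12.3%, Ugt1a6a 11.3% and 10.7%, and Ugt1a7c 0.624% and 0.627%. In blood monocytes the order was turned around: Ugt1a7c held 96.7% (96.1 to 97.1) and Ugt1a1 1.28%. Intervals cover counting error only.

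Liver macrophages lay between these. Ugt1a7c held 91.3% of own reads in week 0 Kupffer cells (188 of 206 reads), 86.9% at week 30, 92.5% in KN_RM, 85.1% in Ly6CLow_RM and 77.1% in Ly6CHi_RM. Ugt1a1 held 59.8% at week 1, 32.6% in KC_H, 29.5% at week 4 (59 of 200 reads), 16% in Ly6CHi_RM and 3.88% at week 0. Hepatocyte markers summed to 6420 to 9390, 2550 to 3640, 4040 to 5150, 2790 to 6730 and 1410 to 2190 CPM in those groups. Trf alone was at 2040 and 2750 CPM in KC_H, and the part of hepatocyte RNA in these shares was not tested. At week 10 the share of Ugt1a1 ran from 2.6% to 53.9% between libraries. In the LXR set the own reads were spread over the lines, 26.9% and 28.5% for Ugt1a7c, on 584 and 386 reads. A level of Ugt1a10 or Ugt1a1 in sorted cells below is thus mostly a level of the shared exons. Outside the LXR set and week 1, Ugt1a7c had the largest share of the own reads pooled over each sorted group. Single libraries differed in this order at weeks 4 and 10, and at week 10 its share ran from 34.2% to 97.0% between libraries.

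**Figure D4:**
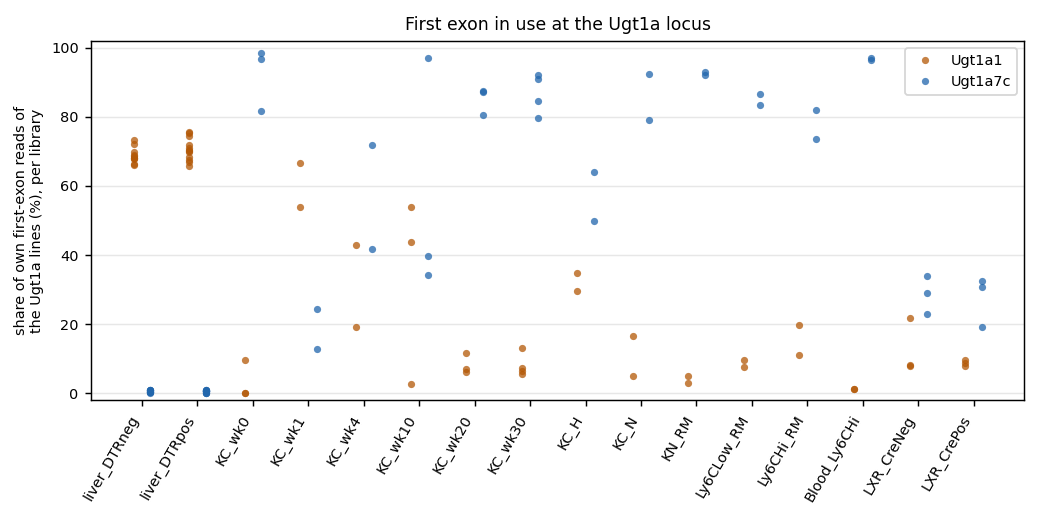
Share of own first-exon reads (%) held by Ugt1a1 (orange) and Ugt1a7c (blue) in each library, by group. Ugt1a1 leads in all whole livers, Ugt1a7c in blood monocytes (96.7%) and most macrophage groups, and the 2 overlap or change order at weeks 1, 4 and 10.

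NASH diet against control diet in Kupffer cells of the population set changed 9 of the 34 members tested, 6 up and 3 down, beside 20.7% of all genes (11.2% up, 9.56% down). The median log2 difference was 0.32 over the members and 0.00 over all genes. The 6 that rose were Gstm4 and the 5 Ugt1a lines, and the 3 that fell were Sult1a1, Gstp2 and Ugt2b5. The Ugt1a lines rest mostly on the same shared exons, so the 6 and the 9 overstate the number of separate changes. The median also holds these exons once per line. Beside them, 0 hepatocyte markers rose and 3 of 16 fell, with summed levels of 1470 to 2060 CPM in KC_N and 2550 to 3640 CPM in KC_H. Most of these sums was Trf, at 1410 and 1720 CPM in KC_N and 2040 and 2750 CPM in KC_H. Of the cholangiocyte markers 3 of 5 rose. Of the markers of other cells and states, 4 of 8 monocyte and macrophage markers rose (9110 to 10600 CPM in sum, beside 5240 to 7900), while 4 of 8 Kupffer cell and 6 of 8 sinusoidal endothelial markers fell. T and NK cell markers rose in 4 and fell in 1 of 6, and stellate markers rose in 3 of 10; the part of all these in the members' differences was not tested.

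Sult1a1 was at 113 and 122 CPM in the KC_H libraries and at 50.5 and 28.1 CPM in KC_N. It fell by 1.59 on the log2 scale (± 0.29 SE, edgeR adjusted p = 0.00428, n = 2 each), and in TPM it went from 121 ± 8.68 to 35 ± 15.1. Gstp2 was at 6.88 and 5.22 CPM in KC_H and 2.77 and 1.49 in KC_N (log2 -1.51 ± 0.43, edgeR adjusted p = 0.0326), while Gstp1, its near copy, was at 24.5 and 32.1 beside 29.5 and 47.5 CPM (log2 0.45 ± 0.30, not called). The call of Gstp2 was lost without KC_H 1, KC_H 2 or KC_N 2.

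Gstm4, of the mu class, was at 4.92 and 3.88 CPM in KC_H and 9.05 and 7.82 in KC_N (log2 0.93 ± 0.24, edgeR adjusted p = 0.0199), a call lost without KC_H 2, KC_N 1 or KC_N 2. Ugt2b5 fell from 1.66 ± 0.39 to 0.336 ± 0.129 CPM (edgeR adjusted p = 0.0402) and lost its call without any 1 of the 4 libraries. Gstm3 had 0 counts in KC_H and 13 in KC_N, at least 4.81-fold higher with the group's floor set at 3 counts, and was not called.

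The shared Ugt1a exons, read through Ugt1a10, rose from 9.34 and 13.1 CPM to 23.5 and 30.3 CPM (log2 1.27 ± 0.20, edgeR adjusted p = 0.00154). By own reads, Ugt1a7c rose from 3.56 ± 0.563 to 10.6 ± 0.111 CPM (log2 1.58, edgeR adjusted p = 0.000876), and Ugt1a1 was at 2.11 ± 0.925 and 1.39 ± 1.16 CPM (log2 -0.56, adjusted p = 0.582), so that counting own reads left 1 member up and 3 down.

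Around these enzymes, glutathione synthesis and NRF2 targets fell in 7 and rose in 1 of 21. Oplah, of the glutathione salvage cycle, fell by 1.99 on the log2 scale, Hmox1, the haem oxygenase gene, by 1.53, and Ggt5 by 1.31. Slc7a11, the cystine carrier that feeds glutathione synthesis, rose from 0.106 ± 0.0609 to 4.06 ± 1.59 CPM, on 3 counts in KC_H. Export and deconjugation genes changed in 4 of 12: Gusb, beta-glucuronidase, rose by 1.19, and Abcc1, Abcc4 and Arsa fell by 0.62, 0.49 and 0.36. Of the cofactor genes 2 of 14 rose, Ethe1 (0.91) and Bpnt1 (0.63). Other conjugating enzymes rose in 5 of 14, with Ugt1a7c (1.35), Ugt1a6b (1.26) and Ugt1a6a (1.24), which share the Ugt1a exons, and As3mt, an arsenic methyltransferase gene (0.76), and regulators split 4 to 4 of 21, among them Maff (1.22), Cebpa (0.91) and Cux2 (-2.59).

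The time course gave the same question over 30 weeks with other libraries. At week 30 against week 0, 11 of 37 members rose and 5 fell, beside 30.5% of all genes (15.5% up, 15% down), with a median of 0.45 over members and 0.00 over all genes. By family, glutathione S-transferases rose in 3 and fell in 4 of 17, glucuronosyltransferases rose in 8 of 14, and sulfotransferases fell in 1 of 6. The 8 and the 11 include 5 Ugt1a lines, which are largely 1 measurement of the shared exons, so both counts overstate the number of separate rises. Hepatocyte markers rose in 9 of 16 and fell in 0, with a median of 2.48, on summed levels, led by Trf, of 1320 to 2250 CPM at week 30 and 1410 to 2190 at week 0. Kupffer cell markers fell in 6 of 8 and sinusoidal endothelial markers in 7 of 8, and monocyte and macrophage markers rose in 5 of 8 and stellate markers in 7 of 10 (median 2.72); the part of these in the members' differences was not tested. Sex-linked markers (Xist, Ddx3y, Kdm5d, Eif2s3y and Uty) summed to 271 to 309 CPM at week 0 and 149 to 166 at week 30. Weeks 1 and 10 had 269 to 289 and 331 to 345 CPM. Weeks 4 and 20 had 171 to 188 and 152 to 171. These levels did not follow the order of the weeks. What else than diet time sets these libraries apart, and its part in the members' differences, was not tested.

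Gstp2 was at 5.38, 15.2 and 11 CPM at week 0 and at 0.825, 1.58, 1.07 and 1.35 CPM at week 30. The groups did not overlap, and Gstp2 fell by 3.12 on the log2 scale (± 0.53 SE, edgeR adjusted p = 0.000363). Gstp1 was at 8.09, 27.8 and 17.9 CPM and at 17.9, 17.9, 21.2 and 17.2 CPM, and overlapped (log2 0.06 ± 0.32). Per length, Gstp2 was at 20.9 ± 9.24 TPM at week 0, 58.3% of the Gstp1 level, then at 16.9% at week 1, 29.7% at week 4, 35.8% at week 10, 11.8% at week 20 (7.04% without replicate 2) and 6.43% at week 30. In KC_H, the other Kupffer cells on control diet, it was at 21.1% (16.1% without replicate 1 and 27.8% without replicate 2). In KC_N it was at 5.54% (3.11% without replicate 1 and 9.29% without replicate 2). Gstp2 was at 0.733% and 0.967% of Gstp1 in whole livers and 0.715% in blood monocytes (1.32% without replicate 1 and 0.399% without replicate 2). Since most 50-base stretches are common to the pair, some reads of either may have been counted for the other, and the split is uncertain to that degree.

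Other transferases fell too. Gsta4, the alpha class enzyme for 4-hydroxynonenal, was at 3.76 ± 1.55 CPM at week 0 and 0.618 ± 0.177 at week 30 (log2 -2.59, edgeR adjusted p = 0.000645). Gstm5 fell from 6.07 ± 1.64 to 2.15 ± 0.473 CPM (log2 -1.49), Gstk1, the mitochondrial and peroxisomal kappa enzyme, from 8.03 ± 2.07 to 3.73 ± 1.06 CPM (log2 -1.10), and Sult4a1 from 0.837 ± 0.235 to 0.0772 ± 0.0669 CPM (log2 -3.32). Sult1a1 was at 69.2 ± 19.7 and 42.8 ± 15.8 CPM and was not called here (log2 -0.69 ± 0.34, edgeR adjusted p = 0.13).

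Among those that rose, the shared Ugt1a exons went from 6.28, 7.67 and 6.47 CPM at week 0 to 29.4, 29.8, 21.4 and 26.6 CPM at week 30 (Ugt1a10, log2 1.98 ± 0.24, edgeR adjusted p = 1.8e-05). By own reads Ugt1a7c rose by 2.01 on the log2 scale, from 3.36 to 13.5 CPM, and Ugt1a1 from 0.12 to 1.26 CPM (log2 3.16, edgeR adjusted p = 0.0226). The theta class rose with Gstt1 (2.92), Gstt3 (1.56) and Gstt2 (0.99), and Ugt2b34 (2.75), Ugt2b36 (1.80) and Ugt3a1 followed. Ugt3a1 had 0 counts at week 0 and 21 at week 30, at least 5.12-fold higher, and its groups overlapped. Ugt3a1 and Ugt2b36 lost their calls without any 1 of the week 0 libraries and without week 30 replicate 2, Ugt2b36 also without week 30 replicate 4, and Gstk1 without week 0 replicate 2 or 3. At weeks 20 and 30 Gstt2 and Gstt3 stood above all 16 hepatocyte markers relative to liver, while Gstt1, Ugt2b34 and Ugt2b36 did not. The highest marker was Trf, at 7.94% and 6.79%, and the next had 0.578% and 0.853%. Gstt1 lay between these, at 1.71% and 1.98%, and Ugt2b34 (0.237% and 0.438%) and Ugt2b36 (0.194% and 0.359%) lay below both.

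Of the pathway lists, NRF2 and glutathione genes rose in 3 and fell in 5 of 21, with Slc7a11 at 4.41, Mgst1 at 1.12, Srxn1 at 0.94 and Oplah at -0.90. Export and deconjugation genes rose in 5 of 12 and fell in 1, with Gusb at 1.38 and Abcc4 at -0.70, and with Slco1b2 (3.42) and Abcc2 (3.22), carriers typical of hepatocytes. Regulators rose in 10 of 22, among them Ppara (2.83) and Maff (2.27), and fell in 1, Cux2 (-3.43). Cofactor genes rose in 3 and fell in 2 of 14, with Slc26a1 at 1.01 (sulfate uptake), Ethe1 at 0.82, Ugp2 at -1.08 and Papss2, a PAPS synthase gene, at -0.89. Other conjugating enzymes rose in 4 and fell in 3 of 13, with Ugt1a6b (2.01), Ugt1a6a (2.01) and Ugt1a7c (2.00) on the shared exons and Nat2, an arylamine N-acetyltransferase gene, at -1.17.

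**Figure D5:**
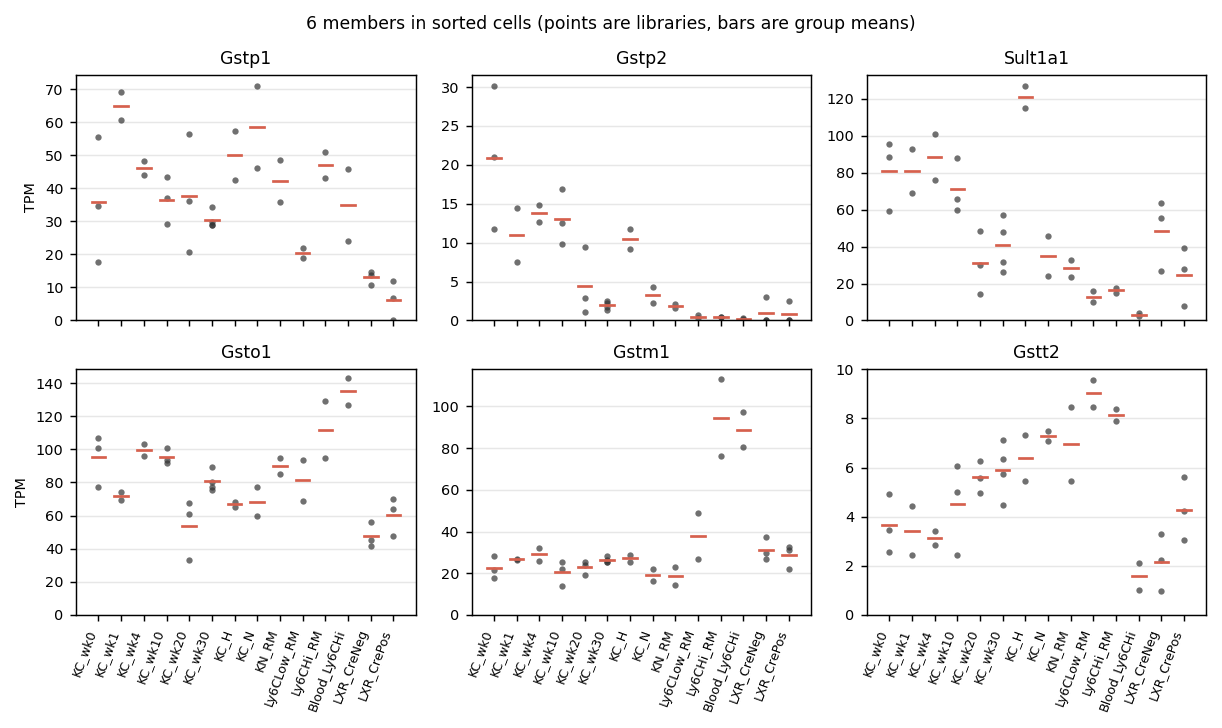
TPM of 6 members in the sorted libraries, by group (points are libraries, red bars group means, axes from 0). Gstp2 drops from 20.9 TPM at week 0 to 1.96 at week 30 while Gstp1 stays between 30.6 and 65.0 TPM over the weeks, Sult1a1 is highest in KC_H at 121 TPM, and Gstm1 is highest in Ly6CHi_RM and blood.

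Recruited macrophages of the Kupffer niche against Kupffer cells, both on the NASH diet, gave 0 called of 34 members, beside 0.534% of all genes (77), 0.333% up and 0.201% down. At an unadjusted p under 0.05 stood 2 members, and DESeq2 called 0 members among 269 genes. Ugt1a2 was at 35.8 ± 5.2 and 26.9 ± 4.87 CPM (log2 0.41 ± 0.18), Gsto1 at 85.9 ± 6.61 and 71.1 ± 10.6, Gstp1 at 25.5 ± 5.35 and 38.5 ± 12.7, Gstp2 at 1.14 ± 0.188 and 2.13 ± 0.904, and Sult1a1 at 29.1 ± 6.78 and 39.3 ± 15.8 CPM. All 5 pathway lists held 0 called genes, with Hmox1 at 600 ± 4.94 and 1090 ± 136 CPM.

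Ly6C-high cells of the liver against those of the blood gave the most calls, 21 up and 6 down of 34 members, beside 48.6% of all genes (27.3% up, 21.3% down). The falls include the Ugt1a lines, whose counts rest mostly on the same shared exons. The median was 2.39, the same with members at 0 set to their bounds, and -0.01 over all genes. Most of what rose had no read in blood: 14 members had 0 counts in both blood libraries. Some of these, among them Gstm3, Gstm6 and Sult1d1, passed the filter on low counts only through the Ly6CHi_RM libraries. Their direction was therefore fixed by the filter, and their calls are no separate evidence of a rise. With the group's floor set at 3 counts, Gsta3 was at least 280-fold higher, Gstt1 and Ugt2b34 155-fold, Ugt3a2 122-fold and Ugt2b36 121-fold, and the other 9 at least 18.6-fold to 68.2-fold. Of the hepatocyte markers 15 of 16 rose and 11 of 16 were at 0 in blood, with sums of 2790 to 6730 CPM in liver and 243 to 430 CPM in blood cells. Markers of other liver cells rose too, sinusoidal endothelial in 8 of 8 (median 11.7), stellate in 9 of 10 (10.3), Kupffer cell in 7 of 8 (7.85) and cholangiocyte in 4 of 5. Among lymphocyte markers, all 5 of the B cell list and all 6 of the T and NK cell list rose, and monocyte and macrophage markers rose in 4 and fell in 3 of 8. The part of all these in the members' differences was not tested.

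Other members were present on both sides. Gstz1 rose from 8.15 and 7 CPM in blood to 18.9 and 35 CPM in liver (log2 1.82, edgeR adjusted p = 3e-04), Sult1a1 from 2.04 and 3.42 to 12.6 and 15.3 CPM (log2 2.41, edgeR adjusted p = 0.000292), and Gstt2 from 1.48 ± 0.717 to 7.47 ± 0.174 CPM. Gstm5 (2.52), Gstm7 (2.38) and Gstk1 (1.46) rose as well, and Gsta4, on 2 counts in blood, had a ratio of 14.7 (95% interval 3.71 to 127). The call of Gsta4 was lost without blood replicate 1. Relative to liver, Gstk1, Gstm5 and Gstt2 stood above all 16 hepatocyte markers in these cells, and Gstz1 and Sult1a1 did not.

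Lower in the liver cells were Sult6b1, at 1.83 and 1.57 CPM beside 4.03 and 7.41 in blood (log2 -1.73, edgeR adjusted p = 0.00338), and the 5 Ugt1a lines. Ugt1a10 was at 126 and 142 CPM in liver cells and 200 and 234 CPM in blood (log2 -0.70 ± 0.17, edgeR adjusted p = 0.00696). By own reads the lines parted: Ugt1a7c fell from 147 ± 19.3 to 56.0 ± 4.19 CPM (log2 -1.39), and Ugt1a1 rose from 1.99 to 11.4 CPM (log2 2.55). Gsto1, Gstm1 and Gstp1, the transferases of highest TPM in these cells, were not called, with Gstm1 at 81.7 ± 23.6 and 79.2 ± 10.9 CPM. Export genes rose in 8 and fell in 1 of 12, with Slco1b2 at 45.9 CPM in liver cells and 0 in blood, and Abcc6 at 12 CPM beside 0. NRF2 and glutathione genes rose in 11 and fell in 3 of 21, with Slc7a11 at 14.9 beside 2.02 CPM and Ephx1, an epoxide hydrolase gene, at 25.4 beside 0.976 CPM. Regulators rose in 9 and fell in 6 of 21, and Hnf4a and Ppara, at 26.3 and 14.7 CPM in liver cells, were at 0 in blood. Cofactor genes rose in 5 and fell in 2 of 14, with Tst at 6.52 beside 0.21 and Slc26a1 at 12.4 beside 3.43 CPM. Other conjugating enzymes rose in 6 and fell in 4 of 14, with the methyltransferase gene Inmt at 7.73 and the glycine transferase gene Glyat at 4.44 CPM beside 0 in blood.

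The Cre contrast of the LXR-floxed mice called 0 of 15 members, beside 0.209% of all genes (24; 0.174% up, 0.0348% down), and 0 members stood at an unadjusted p under 0.05, with 0 members and 232 genes called by DESeq2. Sult1a1 was at 43.0, 18.1 and 37.1 CPM in the Cre-negative and 4.92, 27.2 and 18.3 CPM in the Cre-positive libraries, which overlapped (log2 -0.91 ± 0.50). Gstp1 was at 4.23, 5.71 and 5.38 beside 0, 4.8 and 2.65 CPM (log2 -0.94 ± 0.80). Gstp3, another pi class gene, was at 0.705, 3.57 and 11 beside 2.05, 9.61 and 0.962 CPM, or in TPM at 1.74, 8.92 and 27.7 beside 5.44, 23.1 and 2.44. The other 29 sorted libraries had 0 to 3.4 TPM of Gstp3, a range that holds 1 library of each LXR group. Kupffer cell markers summed to 2740 to 3650 CPM in the Cre-negative and 1450 to 9530 CPM in the Cre-positive libraries. Timd4, the gene of Tim4, was at 3.52, 5.71 and 16.4 beside 17.2, 304 and 94.3 CPM. The part of this in the members' values was not tested. The LXR libraries were the shallowest, and 45 members did not pass the filter.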

How the data were processed

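RNA-seq of 57 mouse libraries was used as 2 deposited tables of 40458 transcripts. Raw read counts per transcript were made by the authors with HOMER's analyzeRepeats.pl (rna, mm10, exons), and TPM values came from the same program, per the file headers. STAR, HOMER and DESeq2, and the builds mm10 and GRCm38, are named in the submitters' processing notes; trimming and strand settings are not given in the sources used here. Groups were taken from the sample labels. Where a symbol had more than 1 transcript (7630 of 24941), the one with most counts in all was used. The members, lists and tests were chosen with earlier results of these data known.

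Counts were tested in R 4.3.3 with edgeR 4.0.16 (TMM scaling, filterByExpr at a minimum count of 10 and minimum total of 15, quasi-likelihood test, Benjamini-Hochberg adjustment over all genes tested, threshold 0.05), separately in the whole livers, the population set, the time course and the LXR set. Slopes used the log2 CPM of Nqo1 or Col1a1, with a prior count of 1. DESeq2 1.42.0, limma 3.58.1 on log2(TPM + 1) and log2(TPM + 0.1), other scaling, no filter, single libraries left out and a replicate block were alternatives. On simulated counts with 200 genes changed 4-fold, 99% were recovered in the livers, 80% for KC_N minus KC_H, 81.5% for week 30 minus week 0 and 79% in the LXR set. Levels were compared between genes in TPM and between libraries in CPM. Values against a group at 0 are bounds from a floor of 3 counts over the group; intervals are 95%. Levels, shares and sequences were computed in Python 3.11.15 with pandas 2.3.3 and scipy 1.17.1. No 2 libraries of a group differed by as little as sampling noise (chi-square per degree of freedom of 5.03 to 79.9 in 140 pairs).

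Named members are, in each comparison, the called ones (up to the 15 with the largest change), the 12 highest and the 6 most variable in liver, and the 8 highest in sorted cells. From each pathway list up to 4 called genes are named, those of largest change; where none was called, only some of the most abundant are given. Members singled out beyond these, and the 4 livers of low Col1a1, were chosen after their values were seen.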

Additional observations from a re-analysis of the deposited data

Results flagged for a closer look

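In groups of 4 to 10 libraries, a library was marked when its gap to the nearest other exceeded Dixon's 95% critical value for the range of the group. Of 77 groups tested, 4 were marked, and chance marks about 1 in 20. Among the DTRneg livers, replicate 2 was highest for Ugt2a3 at 164 CPM (nearest 121) and for Ugt3a1 at 87.2 CPM (nearest 56.9). That liver is one of the 4 with low Col1a1. In Kupffer cells at week 30, Gstp3 was at 1.56 CPM in replicate 3 (nearest 0.714), and Ugt2b5 at 1.63 CPM in replicate 2 (nearest 0.582).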

How the results depend on the processing

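For KC_N minus KC_H, 9 members were called (6 up, 3 down), and the count was 15 with no filter on low counts (9 up, 6 down), 4 with the own first-exon reads of the Ugt1a genes (1 up, 3 down), and 12 with limma (6 up, 6 down); it ran from 5 to 8 with single libraries left out, 5 without KC_N replicate 2. Week 30 minus week 0 ran from 12 to 17, with limma splitting 7 up to 7 down or 8 to 7 in place of 11 to 5, and Ly6CHi_RM minus blood from 24 to 28, while the whole liver, KN_RM and LXR contrasts stayed at 0. The slope on Nqo1, with 0 called, gave 9 in the DTRneg livers alone, 13 without the 2 farthest livers and 16 with limma. The slope on Col1a1, with 5 called, gave 12 without the genotype term, 0 in the DTRpos livers alone, 0 without the 2 farthest livers and 7 (3 up, 4 down) with limma. The causes were not tested. Values that changed sign were Gstm3 in the DTR contrast without the 4 livers of low Col1a1 (0.0112), Sult2a8 in the DTR contrast with single livers left out (-0.26 to 0.15), Sult1a1 in KN_RM minus KC_N without KC_N replicate 1 (0.0532; range -0.783 to 0.0532) and Gstp3 in the LXR contrast (-1.8 to 0.958). With own first-exon reads Ugt1a10 in KC_N minus KC_H was at 0, and Ugt1a1 at -0.563 there and at -0.869 in KN_RM minus KC_N. The 4 livers and the own first-exon reads were alternatives chosen after seeing the data. Over all genes, KN_RM minus KC_N called 77, but 269 with DESeq2 and 257 with no filter, and the LXR contrast 24, but 232, 273 and, with limma, 2 or 0. Same-numbered replicates were not shown to be pairs: their deviations correlated above 0.1 in 14 of 30 pairs of the population set, 7 of 36 of the time course, 1 of 3 of the LXR set and 5 of 10 of the livers, and 10 of 12, 8 of 16, 2 of 6 and 4 of 20 libraries matched their own number best. With a replicate block, KC_N minus KC_H called 14 members (8 up, 6 down), KN_RM minus KC_N 152 genes and the LXR contrast 112. Depth limits the low members most in the LXR set, where 15 of 60 could be tested.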
